A study of Mus musculus with 15 samples.

Results

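RNA-seq was used to compare activated B cells (actB) with plasmablasts (Pb) that had formed in the same kind of culture. Splenic CD43- B cells of female C57BL/6J mice were cultured for 3 days with LPS, IL2, and IL5 together with DMSO, the solvent that serves as the vehicle control for the EZH2 inhibitor GSK343. Cells were then sorted as B220+GL7+CD138- (actB) or as CD138+ (Pb), so that both groups share the stimulus, the vehicle, and the day of harvest. The comparison holds 6 of the 15 libraries of the series, 3 actB and 3 Pb, and was made for 11299 genes with a symbol. Levels are in RPKM, the library-scaled reads per kilobase of gene, and a gene was tested if 3 or more of the 15 columns reached 1 RPKM. Another 6 libraries, of actB and Pb from cultures with GSK343 at 2 μM, do not enter the difference between the groups, but they shared the fit that estimates the spread of each gene and the filter on low values. For Pb grown with GSK343 the labels name IL6 and not IL5, whereas the methods name IL5 for all cultures with LPS, and which is right was not settled.

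A plasmablast is a dividing B cell that has begun to secrete antibody. The transcription factor Blimp-1 (*Prdm1*) shuts off much of the B cell program, while XBP1 enlarges the endoplasmic reticulum (ER) and the secretory pathway so that antibody can be folded, glycosylated, and exported. The cell thereby gives up antigen presentation and signaling through the B cell receptor in exchange for secretion.

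Plasma cell regulators and nearly all genes of the secretory pathway were higher in Pb, the transcription factors, receptors, and antigen presentation genes of B cells were lower, and the genes of DNA replication and mitosis had small fold changes in both directions. Of 174 genes of the secretory pathway, 159 were higher and 7 lower in Pb, and together they took up 3.20 ± 0.0687% (SD, n = 3) of the counted reads in actB and 7.99 ± 0.145% in Pb. Of 27 B cell transcription factors, 23 were lower and 0 were higher. By limma 0 were higher at an unadjusted p under 0.05, edgeR called 0 higher, and median scaling called 1 higher.

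The libraries held 23673328 to 24265139 counted reads in actB and 19447155 to 20805655 in Pb, so that the 3 reads which a count of 0 allows equal at most 0.154 RPM, the library-scaled read count. Across all genes tested, Pearson's r of log2(RPKM + 0.25) was 0.989 to 0.996 among actB libraries, 0.993 to 0.996 among Pb libraries, and 0.909 to 0.928 between actB and Pb. Replicate 2 stood apart from replicates 1 and 3 in both groups: the chi-square per degree of freedom of its counts was 23.4 and 26.7 against the other actB libraries, which differed from each other by 3.80, and 9.71 and 11.1 against the other Pb libraries, which differed by 3.57. Values without replicate 2 are given beside several of the results below.

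The sorted populations carried most markers of their labels. *Sdc1*, which encodes CD138, measured 0.769, 0.694, and 0.532 RPKM in actB and 28.8, 30.4, and 29.8 in Pb, and since the gate was set on this antigen the difference is a check of the sort and not a result. *Ptprc*, the gene of B220, measured 134, 147, and 142 RPKM in actB and 156, 159.6, and 154 in Pb, a difference of 0.15 on the log2 scale, and the gene level does not resolve the B220 isoform. All 7 plasmablast markers (*Sdc1*, *Prdm1*, *Xbp1*, *Irf4*, *Jchain*, *Mzb1*, and *Tnfrsf17*) were higher in Pb, though for *Sdc1* the gate selected for this. Among activated B cell markers, *Fas*, *Cd86*, *Cd83*, and *Bcl6* were lower in Pb, but *Mki67* was higher. Pb still expressed the B cell markers *Cd79a* at 443 RPKM and *Cd79b* at 279 RPKM. Markers of other cells were scarce: 19 of 24 myeloid genes were under 1 RPKM in all 6 libraries, *C1qc*, *Elane*, *S100a8*, and *S100a9* had no read in any, and the summed level of the list was 188 to 277 RPM in actB and 62.9 to 74.4 in Pb. For T and NK cells, 17 of 21 genes were under 1 RPKM, with sums of 116 to 127 RPM in actB and 107 to 147 in Pb. For erythroid, platelet, and stromal cells, 13 of 17 genes were under 1 RPKM, with *Col3a1* at no read and sums of 149 to 180 RPM in actB and 87.8 to 94.5 in Pb.

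Of the genes tested, 7877 (69.7%) differed between Pb and actB at an adjusted p under 0.05, and all adjusted p-values here are from limma unless edgeR is named. The number of genes higher in Pb was 3086 (27.3%) and the number lower was 4791 (42.4%). The changes were mostly small: 940 genes (8.32%) were at least 2-fold higher and 1001 (8.86%) at least 2-fold lower, and the thresholds of 8-fold left 37 (0.327%) and 56 (0.496%). In 7607 of the called genes (96.6%) the 3 Pb libraries lay entirely above or below the 3 actB libraries. All 3 Pb libraries lay above all actB libraries in 28.6% of the genes tested and below in 43.3%. Over all genes the log2 fold change had a median of -0.12, and when libraries were scaled to equal medians it rose by 0.11 and the calls split evenly, with 3813 genes higher (33.7%) and 3899 lower (34.5%). Higher genes were thus 39.2% of the calls in RPKM, 49.4% after median scaling, and 44.6% by edgeR. Without replicate 2 in any cultured group, 3099 genes were higher and 4808 lower. Fitted on the 6 compared libraries alone, 2945 were higher and 4535 lower. The sources used here do not say whether counting used strand, and values of genes whose exons overlap a gene on the other strand are uncertain. Among the genes named in the text these are *Bach2*, *Cacna1h* (with *Tpsg1*), *Cd81*, *Copg2* (with *Mest*), *Cpeb3*, *Dnmt3a*, *Ezh2*, *Gnl3*, *H2-Aa*, *H2-Ab1*, *Hk1*, *Hsp90b1*, *Il4i1*, *Irf7*, *Kdelr3*, *Lacc1*, *Man1b1*, *Mars*, *Mpdu1*, *Pax5*, *Pmm2*, *Rfxank*, *Rhpn2*, *Sec11a*, *Sec24d*, *Spcs1*, *Sqstm1*, and *Txndc5* (with *Bmp6*). Exons of *Bcl2a1b*, *Cd74*, *Ctsd*, *Foxm1*, *Hsp90b1*, *Il4i1*, *Pdia4*, and *Sec11a* overlap another gene on the same strand. Read shares cannot tell fewer cells of a kind from less RNA per cell, and values are relative to the total RNA counted.

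**Figure D1:**
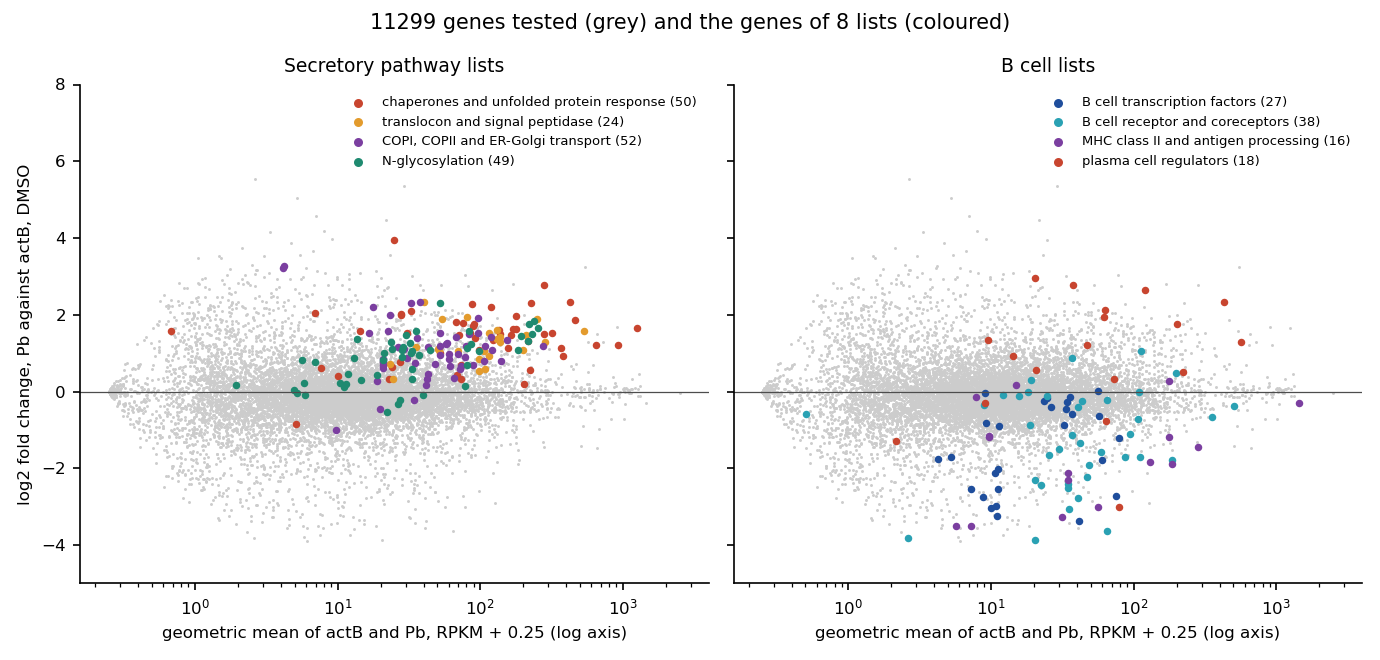
Change from actB to Pb against level. The vertical axis is the log2 fold change of Pb against actB in DMSO cultures and the horizontal log axis the geometric mean of both groups (RPKM + 0.25). Each grey point is 1 of 11299 genes. Coloured points of the secretory pathway lists (left) lie above 0 at nearly all levels, and those of the B cell lists (right) mostly lie below 0, while most plasma cell regulators lie above it.

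**Figure D2:**
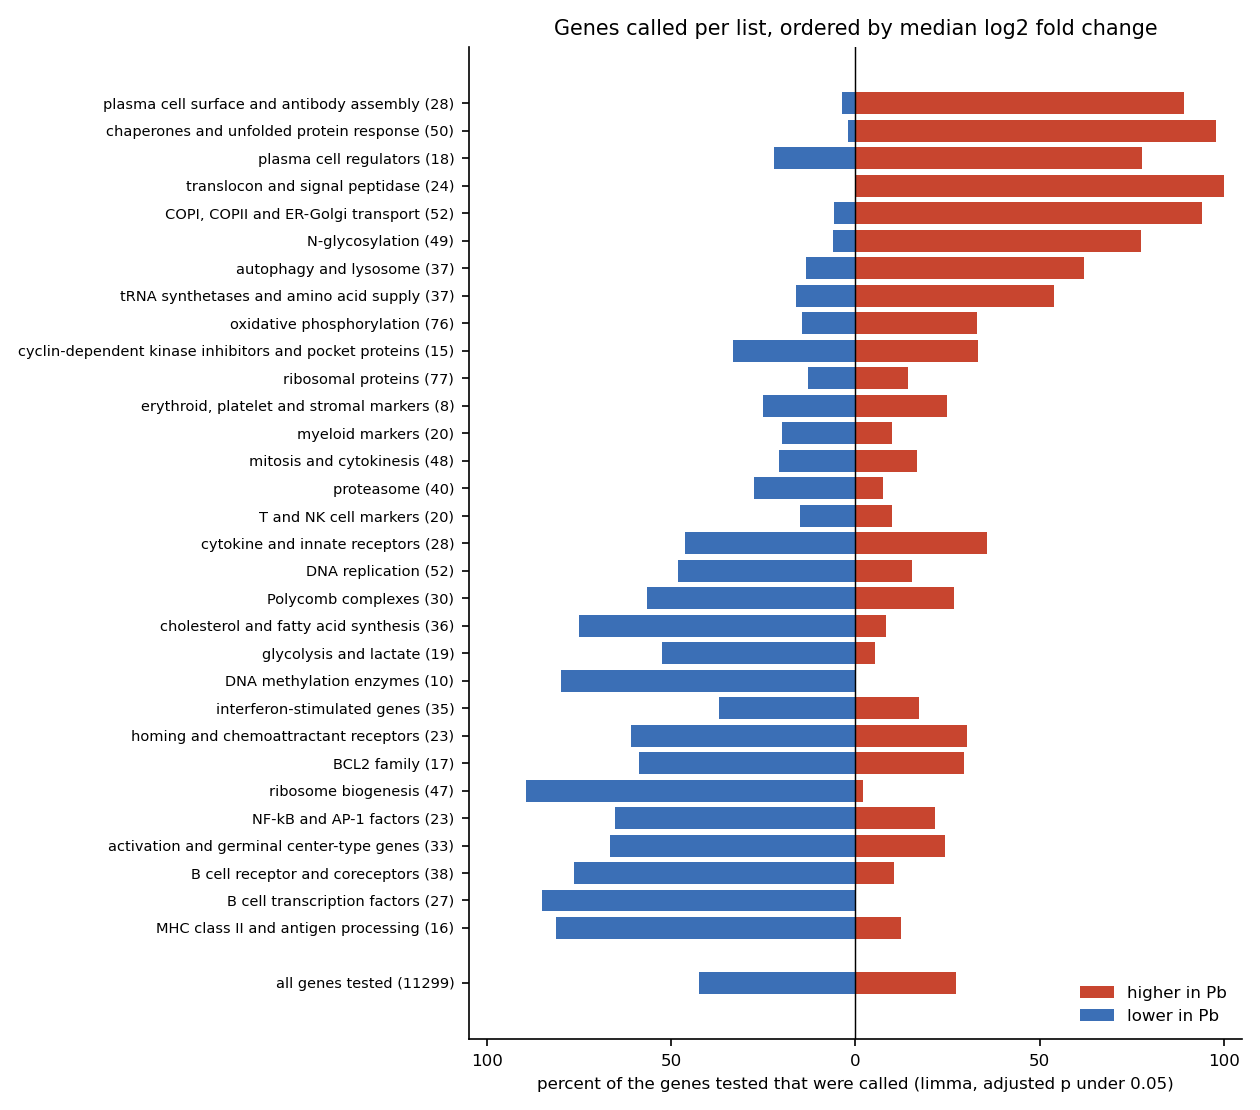
Share of the tested genes of each list that were called higher (right, red) or lower (left, blue) in Pb, with the number tested in brackets and all 11299 genes at the bottom (27.3% higher, 42.4% lower). Lists are ordered by median log2 fold change, from 2.17 for plasma cell surface and antibody assembly to -1.65 for MHC class II and antigen processing.

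Among 18 regulators of the plasma cell state, 14 were higher and 4 lower in Pb, with a median log2 fold change of 1.25 beside -0.12 for all genes. *Prdm1* (chr10:44156983-44248307 in mm9, minus strand), the gene of Blimp-1, measured 31.3, 29.9, and 32.6 RPKM in actB and 116, 121, and 125 in Pb, a log2 fold change of 1.94 (SE 0.08) and an adjusted p of 4.48e-10. Its groups did not overlap, and the transcript was already present in every actB library. *Xbp1* (chr11:5420662-5425896, plus strand), which drives the ER expansion, measured 183, 191, and 196 RPKM in actB and 892, 979, and 996 in Pb, a log2 fold change of 2.33 (SE 0.06). *Irf4*, the factor that rises with the strength of B cell stimulation and is needed for plasma cells, measured 112, 107, and 109 RPKM in actB and 358, 391, and 367 in Pb, a log2 fold change of 1.76 (SE 0.06). The steepest rises of the list were in *Creb3l2*, a membrane-bound factor of the ER stress response, with 7.18, 7.61, and 6.24 RPKM in actB and 55.1, 60.2, and 52.5 in Pb, a log2 fold change of 2.95 (SE 0.07), and in *Bhlha15* (MIST1), a factor of secretory cells, with 15.2, 13.9, and 13.3 RPKM in actB and 98.1, 104, and 94.4 in Pb. *Bhlha15* differed by 2.79 on the log2 scale (SE 0.06). *Ell2*, the elongation factor that favours the secreted form of the immunoglobulin heavy chain, measured 33.8, 27.5, and 28.7 RPKM in actB and 133, 141, and 121 in Pb, a log2 fold change of 2.13 (SE 0.08). In each of these 6 genes every Pb library lay above every actB library, as in 28.6% of all genes tested. *Creb3l2* and *Bhlha15* were named as largest rises, under a rule that required no overlap. Replicates of a group differed far less than the groups.

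The 4 regulators that were lower in Pb were *Zbtb32*, *Zbtb20*, *Ikzf3*, and *Myb*. *Zbtb32*, a repressor induced in activated B cells, had the largest fall of the list, with 213, 232, and 220.5 RPKM in actB and 29.97, 23.5, and 29.02 in Pb, a log2 fold change of -3.01 (SE 0.17). *Zbtb20*, a factor of plasma cell survival, was low throughout, with 2.92, 4.07, and 2.42 RPKM in actB and 1.08, 1.296, and 0.993 in Pb. *Ikzf3* (Aiolos), which is expressed from the pre-B cell on, fell from a mean of 83.04 to 48.8 RPKM. *Myb*, which plasma cells use to reach the bone marrow, measured a mean of 9.87 RPKM in actB and 8.003 in Pb, a log2 fold change of -0.29 (SE 0.09).

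**Figure D3:**
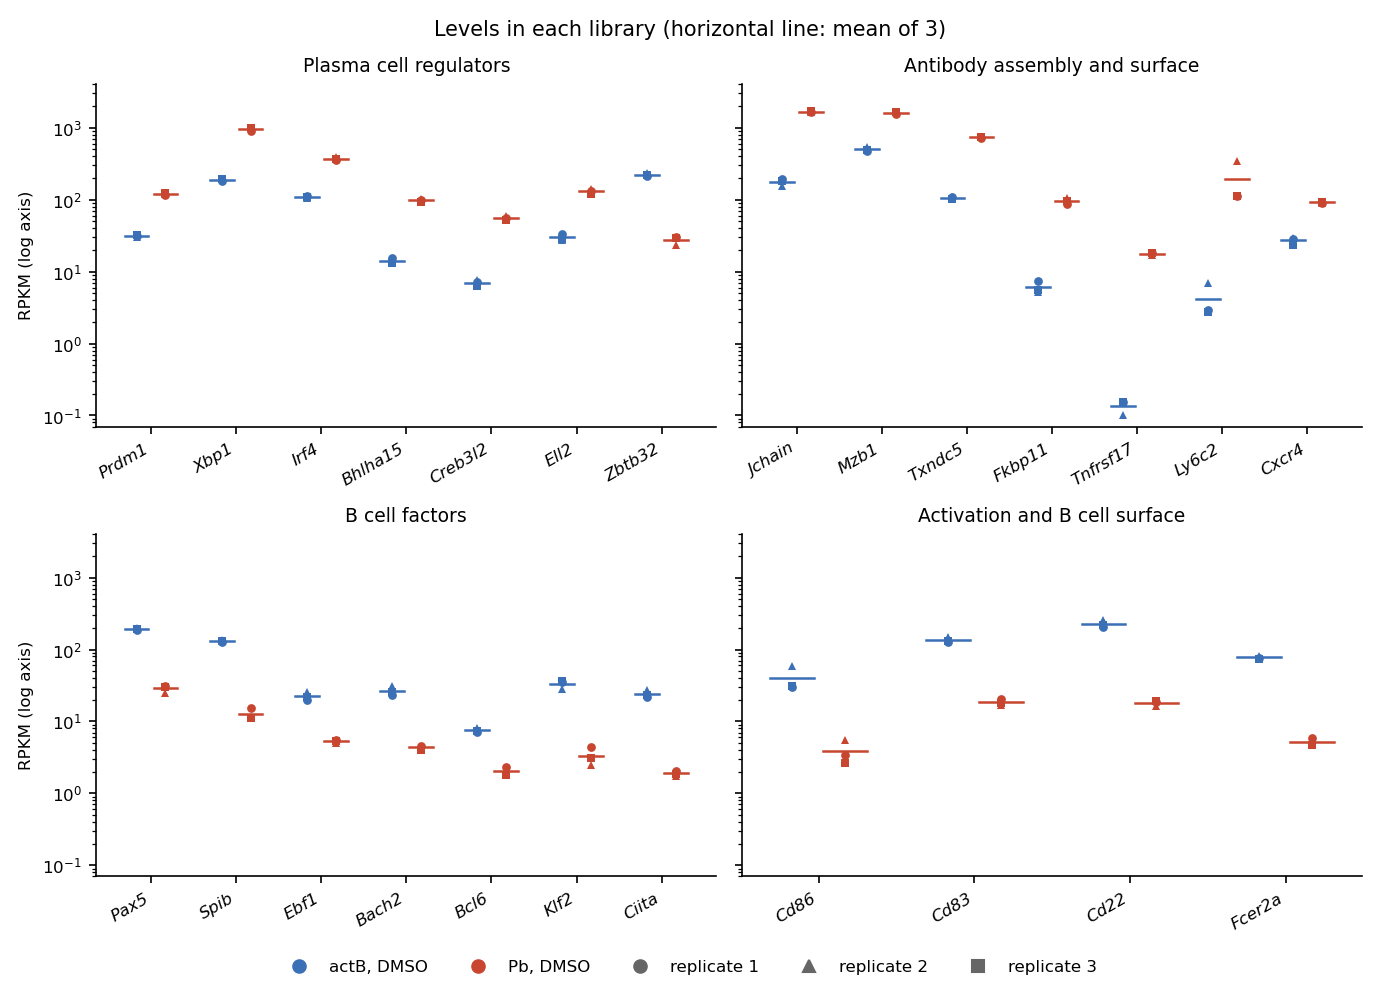
RPKM (log axis) of 25 genes in each of the 3 actB (blue) and 3 Pb (red) libraries with DMSO. The marker shape gives the replicate and the horizontal line the mean. In each gene shown the groups do not overlap, which the rule for naming the largest changes required of some of them. *Ly6c2* and *Cd86* show replicate 2 apart from the others.

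Genes of the plasma cell surface and of antibody assembly had the highest median of the lists: 25 of 28 were higher, 1 was lower, and the median log2 fold change was 2.17. This list shares members with the chaperone list, among them *Creld2*, *Derl3*, and *Txndc5*, so counts and read shares of these lists are not separate. The largest rise of all genes tested was in *Tnfrsf17* (chr16:11313905-11320167, plus strand), which encodes BCMA, the receptor through which plasma cells take up survival signals, with 0.156, 0.102, and 0.153 RPKM in actB and 17.98, 17.2, and 18.2 in Pb. *Tnfrsf17* differed by 5.55 on the log2 scale (SE 0.12). Since 0.25 RPKM was added to each value, the fold of a gene this low in actB is understated. *Jchain*, which joins IgM into pentamers, measured 193, 156, and 184 RPKM in actB and 1671, 1636, and 1697 in Pb, a log2 fold change of 3.24 (SE 0.1), and its mean in Pb was 1668 RPKM. *Mzb1*, an ER cochaperone of IgM assembly, measured 475, 546, and 488 RPKM in actB and 1556, 1665, and 1653 in Pb, a log2 fold change of 1.69 (SE 0.08). *Ly6c2*, a surface marker of mouse plasma cells, measured 2.9001, 6.94, and 2.73 RPKM in actB and 114, 349, and 113 in Pb, with replicate 2 the highest in both groups. Its log2 fold change was 5.35 with all libraries and 5.22 without replicate 2. The chemokine receptor *Cxcr4*, which retains plasma cells in the bone marrow, measured 28.7, 29.8, and 23.2 RPKM in actB and 90.9, 90.97, and 94.2 in Pb, a log2 fold change of 1.76 (SE 0.11). Fewer reads came from *Cd28*, a costimulatory receptor that plasma cells also carry, at a mean of 0.641 RPKM in actB and 10.1 in Pb, a log2 fold change of 3.54 (SE 0.25). The single member that fell was *Cd38*, an ectoenzyme that in mice is high on resting B cells, with 42.2, 63.9, and 51.3 RPKM in actB and 19.2, 28.3, and 16.3 in Pb. *Cd38* differed by -1.31 on the log2 scale (SE 0.2). Genes of the immunoglobulin loci were not analysed here.

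B cell identity factors moved the other way. Of 27 tested, 23 were lower in Pb, 0 were higher, and the median log2 fold change was -1.20. *Pax5* (chr4:44544017-44724318, minus strand), which commits cells to the B lineage, measured 186, 199, and 192 RPKM in actB and 31.5, 25.2, and 30.5 in Pb, a log2 fold change of -2.72 (SE 0.18) and an adjusted p of 3.51e-08. Its mean in Pb was 29.1 RPKM, so that the transcript fell without being lost. *Spib*, an Ets factor of the B cell receptor pathway, fell most, with 129, 138, and 132 RPKM in actB and 15.2, 11.6, and 11.3 in Pb, a log2 fold change of -3.38 (SE 0.18). *Bach2*, which opposes *Prdm1*, measured 23.7, 30.7, and 25.3 RPKM in actB and 4.58, 4.51, and 4.03 in Pb, a log2 fold change of -2.53 (SE 0.13). *Ebf1*, the partner of *Pax5* in B cell specification, measured 20.1, 25.6, and 21.6 RPKM in actB and 5.56, 4.97, and 5.397 in Pb. *Ebf1* differed by -2.02 on the log2 scale (SE 0.14). The germinal center repressor *Bcl6* was low in both groups, with 7.201, 8.19, and 7.48 RPKM in actB and 2.32, 2.099, and 1.81 in Pb, a log2 fold change of -1.76 (SE 0.1). *Klf2*, a factor of quiescence and recirculation, measured 35.8, 27.8, and 35.9 RPKM in actB and 4.36, 2.505, and 3.12 in Pb, a log2 fold change of -3.25 (SE 0.18). No Pb library reached an actB library in these 6 genes, as in 43.3% of all genes tested. The largest falls were named under a rule that required no overlap. *Tcf3*, at a mean of 55.7 RPKM in actB and 56.6 in Pb, and *Tcf4*, at 37.4 and 34.1 RPKM, encode the E proteins E2A and E2-2 and did not pass the test (adjusted p = 0.714 and 0.0893).

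Receptor signaling genes followed: of 38 genes of the B cell receptor and its coreceptors, 29 were lower and 4 higher, with a median log2 fold change of -1.12. The signaling chains of the receptor itself had smaller fold changes than several of its regulators. *Cd79a* measured 544, 617, and 555 RPKM in actB and 437, 463, and 428 in Pb, a log2 fold change of -0.37 (SE 0.07), and *Cd79b* measured 422, 477, and 439 RPKM in actB and 279, 287, and 272 in Pb. *Cd79b* differed by -0.67 on the log2 scale (SE 0.06). By contrast *Cd22*, an inhibitory sialic acid receptor, measured 205, 258, and 216 RPKM in actB and 18.9, 16.4, and 18.95 in Pb, a log2 fold change of -3.62 (SE 0.21). *Fcer2a* (CD23), the low-affinity IgE receptor of mature B cells, measured 77.4, 80.9, and 74.7 RPKM in actB and 5.85, 4.84, and 4.699 in Pb, a log2 fold change of -3.86 (SE 0.25). The inhibitory receptor *Pirb* measured 8.24, 11.3, and 8.99 RPKM in actB and 0.538, 0.487, and 0.319 in Pb, a log2 fold change of -3.81 (SE 0.14), and *Siglecg*, another inhibitory lectin, had means of 100.5 RPKM in actB and 11.9 in Pb. The 4 members that were higher were *Cd81*, *Ptpn22*, *Blnk*, and *Fyn*. *Cd81*, a tetraspanin of the B cell surface, measured 81.2, 82.1, and 72.5 RPKM in actB and 152, 181, and 156 in Pb, a log2 fold change of 1.05 (SE 0.09), and *Blnk*, the adaptor downstream of the receptor, measured 165, 173, and 158 RPKM in actB and 241, 224, and 233 in Pb, a log2 fold change of 0.49 (SE 0.05). 

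For MHC class II and antigen processing, 13 of 16 genes were lower and 2 higher, with a median log2 fold change of -1.65, the lowest of the lists. *Ciita*, the coactivator on which class II transcription depends, measured 22.2, 27.04, and 23.4 RPKM in actB and 2.06, 1.76, and 1.87 in Pb, a log2 fold change of -3.51 (SE 0.15) and an adjusted p of 6.85e-10. The class II chains had smaller fold changes: *H2-Aa* measured 217, 279, and 246 RPKM in actB and 73.7, 62.3, and 71.2 in Pb, a log2 fold change of -1.83 (SE 0.1), *H2-Ab1* had a log2 fold change of -1.46 (SE 0.08), and *H2-Eb1* of -1.88 (SE 0.09). *H2-Oa*, part of the HLA-DO-like modulator of peptide loading, measured 15.4, 24.5, and 16.9 RPKM in actB and 1.34, 1.98, and 1.04 in Pb, a log2 fold change of -3.5 (SE 0.26). *Cd74*, the invariant chain, remained the most abundant gene of the list in Pb, with 1486, 1759, and 1598 RPKM in actB and 1271, 1345, and 1288 in Pb and a log2 fold change of -0.31, a call that median scaling did not keep (adjusted p = 0.0682). The 2 members that were higher, the protease gene *Ctss* (log2 fold change 0.27) and *Rfxank* (0.16), a subunit of the factor that binds class II promoters, lost their calls when single libraries were left out. For *Ctss* this was so without actB replicate 1 or 3 or Pb replicate 2, and for *Rfxank* without actB or Pb replicate 3, where the adjusted p reached 0.112 and 0.0898.

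Of 33 genes of B cell activation and of the germinal center type, 22 (66.7%) were lower and 8 (24.2%) higher in Pb. Of all genes 42.4% were lower and 27.3% higher. The median log2 fold change of the list was -1.07. *Cd86*, a costimulatory ligand for T cells, measured 29.8, 59.003, and 31.1 RPKM in actB and 3.44, 5.57, and 2.67 in Pb, with replicate 2 the highest in both groups, and its log2 fold change was -3.27 with all libraries and -3.22 without replicate 2. *Cd83*, an activation antigen that stabilizes MHC class II, measured 126, 149, and 133 RPKM in actB and 20.7, 16.7, and 18.2 in Pb, a log2 fold change of -2.86 (SE 0.15). *Fas*, the death receptor of activated B cells, measured 16.3, 24.4, and 14.2 RPKM in actB and 4.11, 6.14, and 5.26 in Pb, a log2 fold change of -1.76 (SE 0.23). *Myc*, which drives the growth of activated cells, measured 35.1, 32.7, and 33.5 RPKM in actB and 20.7, 19.6, and 23.02 in Pb. *Myc* differed by -0.68 on the log2 scale (SE 0.1). Against the list, *Il10*, a regulatory cytokine of B cells and plasmablasts, measured 13.9, 23.7, and 17.5 RPKM in actB and 59.1, 101, and 78.6 in Pb, a log2 fold change of 2.1 (SE 0.23), and *Ccl4*, a chemokine, measured 1.05, 0.858, and 1.59 RPKM in actB and 6.53, 5.26, and 11.9 in Pb, a log2 fold change of 2.47 (SE 0.33). *Cmah* was also higher, with 25.6, 25.5, and 22.5 RPKM in actB and 55.4, 59.6, and 50.6 in Pb, a log2 fold change of 1.16 (SE 0.08). Its enzyme changes the sialic acid that the GL7 antibody detects, and GL7 was part of the actB gate.

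Genes of the secretory pathway were mostly higher in Pb. In order of the path that a nascent antibody takes, 24 of 24 genes of the translocon, signal recognition, and signal peptidase were higher in Pb (median log2 fold change 1.218), as were 49 of 50 chaperone and unfolded protein response genes (1.51), 38 of 49 N-glycosylation genes (0.94), and 49 of 52 genes of COPI, COPII, and ER-Golgi transport (1.03). Members lower in Pb numbered 0, 1, 3, and 3. Without replicate 2 the numbers higher were 24, 48, 38, and 49.

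At the translocon, *Sec61a1*, the channel itself, measured 75.7, 75.6, and 72.7 RPKM in actB and 225, 232, and 227 in Pb, a log2 fold change of 1.61 (SE 0.04), and *Sec61b* measured 186, 179, and 182 RPKM in actB and 428, 430.2, and 477 in Pb. *Sec61b* differed by 1.28 on the log2 scale (SE 0.07). *Spcs1*, a subunit of the signal peptidase, measured 43.01, 39.7, and 40.9 RPKM in actB and 157, 155, and 164 in Pb, a log2 fold change of 1.94 (SE 0.05). The largest rise of this list was in *Tram2*, a translocon-associated protein, with 18.4, 19.4, and 15.3 RPKM in actB and 93.1, 93.6, and 81.4 in Pb, a log2 fold change of 2.33 (SE 0.09). The smallest was in *Sec11a*, a catalytic subunit of the signal peptidase, with 22.3, 20.1, and 22.4 RPKM in actB and 27.3, 26.4, and 28.2 in Pb. *Sec11a* differed by 0.33 on the log2 scale (SE 0.06). Even there the groups did not overlap.

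Among the folding factors, *Hsp90b1* (GRP94) measured 711, 672, and 728 RPKM in actB and 2222, 2244, and 2207 in Pb, a log2 fold change of 1.66 (SE 0.05), with a mean of 2225 RPKM in Pb. *Hspa5* (BiP), the ER chaperone that holds unassembled heavy chains, measured 416, 412, and 444 RPKM in actB and 952, 1022, and 963 in Pb, a log2 fold change of 1.21 (SE 0.06). *Pdia4*, a disulfide isomerase, measured 246, 234, and 244 RPKM in actB and 878, 914, and 855 in Pb, a log2 fold change of 1.87 (SE 0.05). The steepest rises were in *Fkbp11*, a prolyl isomerase of secretory cells, with 7.32, 5.28, and 5.57 RPKM in actB and 87.8, 106, and 96.2 in Pb, a log2 fold change of 3.95 (SE 0.11), and in *Txndc5*, a further disulfide isomerase, with 108, 108, and 104 RPKM in actB and 711, 752, and 744 in Pb. *Txndc5* differed by 2.79 on the log2 scale (SE 0.05). Sensors and effectors of ER stress were also higher. *Atf4*, the effector of the PERK branch, measured 209, 153, and 187 RPKM in actB and 285, 253, and 272 in Pb, a log2 fold change of 0.57 (SE 0.09), and *Atf6* had means of 64.8 RPKM in actB and 81.9 in Pb, a log2 fold change of 0.33 (SE 0.05). *Ern1* (IRE1), the enzyme that splices *Xbp1* mRNA, had means of 13.8 and 55.4 RPKM, a log2 fold change of 1.998 (SE 0.11). The single member that was lower was *Trib3*, a pseudokinase induced downstream of ATF4, with 7.11, 5.64, and 6.89 RPKM in actB and 4.34, 2.79, and 3.54 in Pb, a log2 fold change of -0.85 (SE 0.24).

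Some of these genes carry an ER stress element in the promoter to which NF-Y and ATF6 bind. It was searched on both strands as CCAAT, any 9 bases, and CCACG. In RefSeq promoters of GRCm38.p6 (250 bases before to 50 after the start), available for 8964 of the genes tested, 16 genes (0.178%) held it. Of 44 chaperone and unfolded protein response genes with a promoter, 10 (22.7%) held it, all before the start, and all 10 were higher in Pb, with log2 fold changes from 0.21 in *Canx* to 2.31 in *Creld2*. Over the 16 genes, 11 were higher and 3 lower, with a median log2 fold change of 1.15. The median of the chaperone genes that held the element was 1.44, and that of those without it 1.53. The sites are printed 5′ to 3′ on the strand of the gene with 10 flanking bases, since they are the stretch of sequence that these chaperone genes share, and capitals mark the element.
*Creld2* (chr15:88819510-88819548, plus strand): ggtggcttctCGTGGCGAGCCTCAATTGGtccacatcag
*Derl3* (chr10:75893232-75893270, plus strand): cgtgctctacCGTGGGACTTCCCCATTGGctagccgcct
*Hsp90b1* (chr10:86705628-86705666, minus strand): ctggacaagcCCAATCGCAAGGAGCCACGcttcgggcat
*Hsp90b1* (chr10:86705523-86705561, minus strand): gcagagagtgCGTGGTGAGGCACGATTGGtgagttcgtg
*Pdia6* (chr12:17266481-17266519, plus strand): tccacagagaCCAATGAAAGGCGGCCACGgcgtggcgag
*Dnajc3* (chr14:118937817-118937855, plus strand): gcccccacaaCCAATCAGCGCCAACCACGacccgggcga
*Ero1lb* (chr13:12565672-12565710, plus strand): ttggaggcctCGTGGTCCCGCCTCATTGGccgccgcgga
*Calr* (chr8:84847065-84847103, minus strand): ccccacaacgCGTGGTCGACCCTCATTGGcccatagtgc
*Hspa5* (chr2:34772015-34772053, plus strand): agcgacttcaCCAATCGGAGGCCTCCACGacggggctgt
*Syvn1* (chr19:6046522-6046560, plus strand): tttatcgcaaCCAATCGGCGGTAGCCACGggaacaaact
*Canx* (chr11:50325790-50325828, minus strand): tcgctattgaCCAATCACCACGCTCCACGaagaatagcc

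The *Hsp90b1* promoter holds 2 of these elements, and its 250 bases before the start are printed whole because no other chaperone promoter searched had more than 1, with both elements in capitals.
*Hsp90b1* (chr10:86705445-86705694, minus strand): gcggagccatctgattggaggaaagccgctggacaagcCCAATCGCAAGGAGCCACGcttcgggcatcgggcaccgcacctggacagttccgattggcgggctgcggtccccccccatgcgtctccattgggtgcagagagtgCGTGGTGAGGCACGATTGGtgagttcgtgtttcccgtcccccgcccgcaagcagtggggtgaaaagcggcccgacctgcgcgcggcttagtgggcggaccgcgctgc
The *Creld2* element lies between divergent genes and is at the same bases of chromosome 15 as that of *Alg12*, a mannosyltransferase of N-glycosylation. *Creld2* rose from a mean of 101 to 502 RPKM, a log2 fold change of 2.31, and *Alg12* from 15.9 to 21.5 RPKM, a change of 0.42. 

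N-glycans are attached by the oligosaccharyltransferase, of which these subunits rose. *Stt3a*, its catalytic subunit, measured 118, 116, and 117 RPKM in actB and 323, 322, and 316 in Pb, a log2 fold change of 1.45 (SE 0.04). *Ddost* measured 132, 118, and 126 RPKM in actB and 441, 459.99, and 438 in Pb, a log2 fold change of 1.83 (SE 0.05), and *Rpn1* measured 123, 111, and 123 RPKM in actB and 405, 413, and 398 in Pb. *Rpn1* differed by 1.76 on the log2 scale (SE 0.05). *Man1b1*, the mannosidase that marks misfolded glycoproteins, had the largest rise of the list, with 23.4, 22.6, and 22.9 RPKM in actB and 111, 122, and 114 in Pb, a log2 fold change of 2.32 (SE 0.05). The 3 members that were lower belong to the supply of mannose: *Pmm1* and *Pmm2*, which isomerize mannose phosphate, and *Mpdu1*, which is needed to use dolichol-linked mannose. *Pmm1* measured 27.96, 23.3, and 27.4 RPKM in actB and 18.8, 15.9, and 20.002 in Pb, a log2 fold change of -0.52 (SE 0.09). *Mpdu1* had a log2 fold change of -0.23, which median scaling did not keep (adjusted p = 0.0614).

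In transport between ER and Golgi, paralogs of 1 coat subunit changed in opposite directions. *Sec24d*, a cargo adaptor of COPII, measured 15.1, 13.8, and 14.5 RPKM in actB and 75.01, 70.3, and 70.2 in Pb, a log2 fold change of 2.29 (SE 0.1), and *Sec24a* measured 8.85, 7.36, and 8.12 RPKM in actB and 38.8, 38.5, and 36.1 in Pb. *Sec24a* differed by 2.19 on the log2 scale (SE 0.09). *Sec24b* was lower in Pb, with 24.7, 22.05, and 22.5 RPKM in actB and 17.5, 16.6, and 16.2 in Pb, a log2 fold change of -0.46 (SE 0.05). In the COPI coat, *Copz2* measured 0.636, 1.83, and 0.931 RPKM in actB and 10.7, 15.9, and 10.8 in Pb, a log2 fold change of 3.27 (SE 0.31), whereas *Copg2* was lower, with 12.2, 15.5, and 13.3 RPKM in actB and 6.45, 6.74, and 6.73 in Pb, a log2 fold change of -1.01 (SE 0.07). The KDEL receptors return escaped chaperones to the ER. *Kdelr3* measured 1.25, 1.11, and 0.933 RPKM in actB and 11.4, 13.8, and 11.8 in Pb, a log2 fold change of 3.22 (SE 0.16), with exons that overlap *Ddx17* on the other strand, and the more abundant *Kdelr1* measured 56.1, 55.6, and 57.6 RPKM in actB and 168, 158, and 161 in Pb. *Kdelr1* differed by 1.52 on the log2 scale (SE 0.05). The third gene lower in Pb, *Trappc3*, changed by -0.23, which median scaling did not keep (adjusted p = 0.0832).

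TGACGTGG, the core of elements bound by XBP1, was searched on both strands and shares CGTGG with the ER stress element. It was in 7 of 44 promoters of transport genes (15.9%), beside 95 of 8964 genes tested (1.06%). All 7 were higher in Pb, but so were 49 of the 52 transport genes tested. The median log2 fold change of transport genes was 1.41 with the core and 0.99 without it. Over the 95 genes 49 were higher and 27 lower, with a median log2 fold change of 0.24. The sites upstream of strongly raised genes are shown because they carry this core in capitals, *Kdelr3* and *Sec24d* from the transport list and *Txndc5* from the chaperone list.
*Kdelr3* (chr15:79516368-79516395, plus strand): ggccgccccgCCACGTCAccgcgcggcc
*Sec24d* (chr3:123267460-123267487, plus strand): cccgggcgccTGACGTGGcactagcaac
*Txndc5* (chr13:38528035-38528062, minus strand): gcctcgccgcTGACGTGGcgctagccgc

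**Figure D4:**
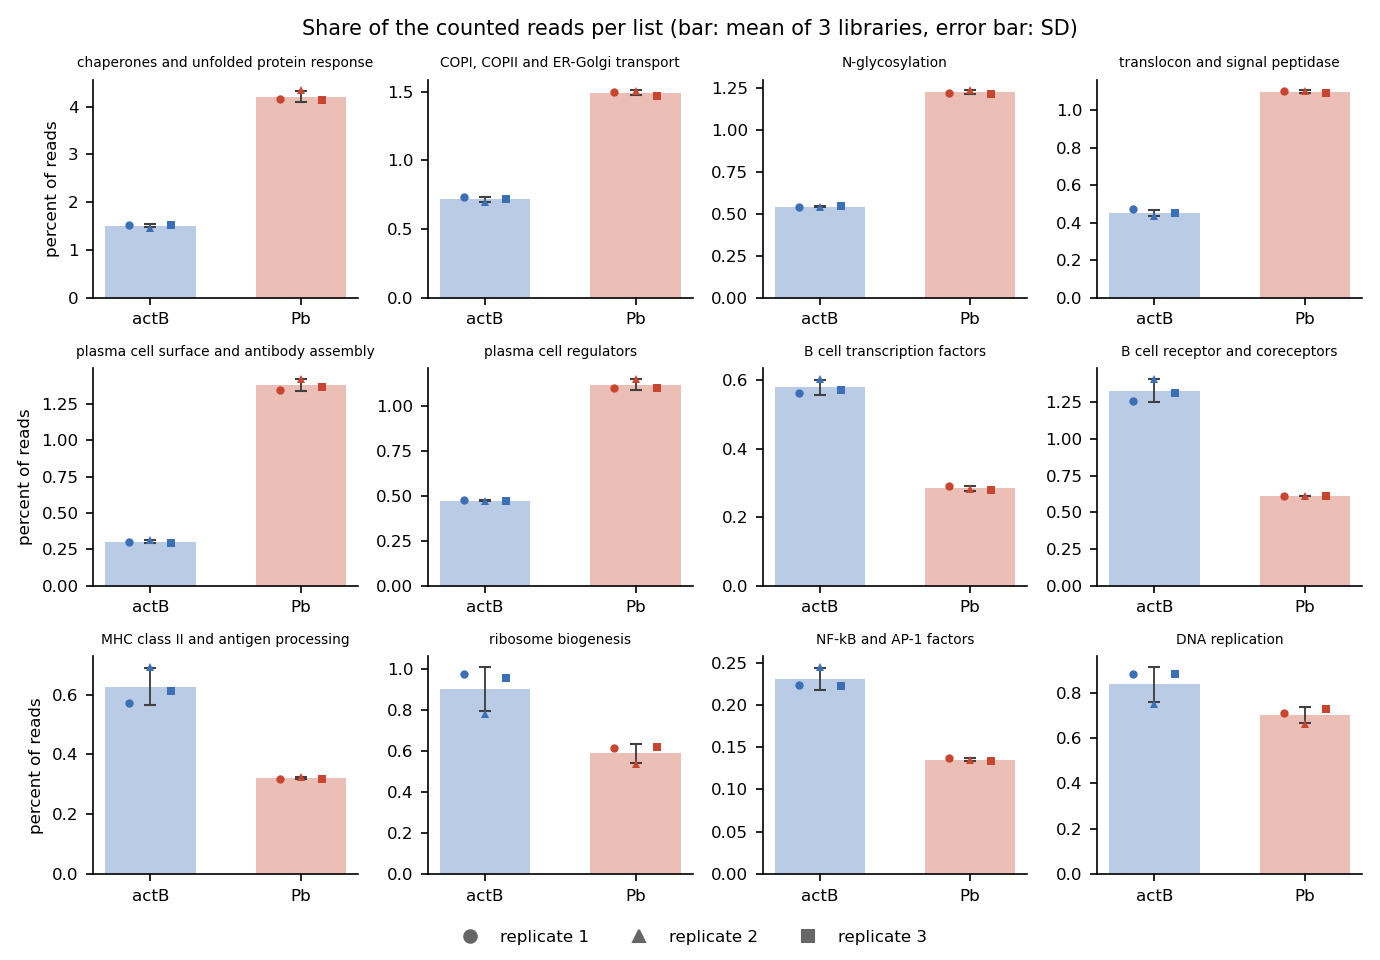
Share of all counted reads (percent) that 12 lists took up in each library. Bars are means of 3 libraries, error bars the SD, and marker shapes the replicates. The chaperone list rose from 1.504% to 4.21% and the B cell receptor list fell from 1.33% to 0.611%. No list shown had overlap between actB and Pb, as was so for most of the 31 lists.

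Read as shares of all counted reads, chaperone genes took up 1.504 ± 0.0348% in actB and 4.21 ± 0.114% in Pb, and the plasma cell surface and antibody assembly genes rose from 0.302% to 1.38%. Shares fell from 0.579% to 0.284% for B cell transcription factors, from 1.33% to 0.611% for the B cell receptor list, and from 0.625% to 0.321% for MHC class II. Groups did not overlap in these 5 lists, which gives an exact permutation p of 0.1, the smallest that 3 libraries against 3 allow (0.141 after adjustment over 31 lists). Most of the 31 lists had this same p, among them DNA replication and the myeloid markers, so it does not set these 5 apart. Without *Jchain* the rise of the plasma cell surface list came to 0.763 percentage points in place of 1.07.

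Genes of lysosomes and autophagy, which dispose of surplus ER, were mostly higher, 23 of 37 with 5 lower and a median log2 fold change of 0.32. *Ctsd*, a lysosomal protease, measured 36.9, 38.5, and 32.6 RPKM in actB and 144, 167, and 141 in Pb, a log2 fold change of 2.06 (SE 0.09), and *Wipi1*, which marks forming autophagosomes, measured 1.55, 2.55, and 1.37 RPKM in actB and 14.99, 17.9, and 14.4 in Pb, a log2 fold change of 2.99 (SE 0.22). *Sqstm1* (p62), the receptor of selective autophagy, measured 78.6, 74.8, and 75.02 RPKM in actB and 138, 149.9, and 135 in Pb, a log2 fold change of 0.89 (SE 0.06). *Tfeb*, a regulator of lysosome genes, was lower, with 17.7, 19.01, and 18.2 RPKM in actB and 8.28, 8.35, and 9.19 in Pb. *Tfeb* differed by -1.07 on the log2 scale (SE 0.07). The number lower was 3 without replicate 2 and 2 after median scaling.

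Of 37 genes of tRNA synthetases and amino acid supply, 20 (54.1%) were higher and 6 (16.2%) lower, beside 27.3% and 42.4% of all genes, with a median log2 fold change of 0.28. With median scaling 25 were higher and 3 lower. *Slc7a5* and *Slc3a2* encode the subunits of the exchanger that imports large amino acids. *Slc7a5* measured 83.2, 57.4, and 78.8 RPKM in actB and 142, 139.7, and 148 in Pb, a log2 fold change of 0.99 (SE 0.13), and *Slc3a2* measured 58.9, 41.6, and 52.4 RPKM in actB and 133, 149.7, and 130.2 in Pb, a log2 fold change of 1.44 (SE 0.11). *Pycr1*, the last enzyme of proline synthesis, rose most, with 5.69, 5.096, and 4.81 RPKM in actB and 26.6, 30.6, and 26.5 in Pb, a log2 fold change of 2.37 (SE 0.17). The tRNA synthetases were not uniform, since *Mars* rose to 91.8 RPKM with a log2 fold change of 0.73 (SE 0.1), *Gars* did not pass the test at 0.05 (SE 0.11), and *Dars* fell to 56.3 RPKM with a log2 fold change of -0.4 (SE 0.05).

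Lipid synthesis genes were lower in Pb, 27 of 36 with 3 higher and a median log2 fold change of -0.33. *Scd1*, a fatty acid desaturase, measured 334, 330.3, and 339 RPKM in actB and 173, 158, and 157 in Pb, a log2 fold change of -1.04 (SE 0.09), and *Hmgcs1*, an early enzyme of the cholesterol pathway, measured 55.98, 57.6, and 57.9 RPKM in actB and 37.4, 42.4, and 33.5 in Pb. *Hmgcs1* differed by -0.6 on the log2 scale (SE 0.09). *Insig1*, which holds the lipid sensor SCAP in the ER, rose, with 88.9, 93.2, and 87.1 RPKM in actB and 199.7, 238, and 191 in Pb, a log2 fold change of 1.217 (SE 0.08). The regulator *Srebf2* did not pass the test, with 83.8, 89.8, and 85.7 RPKM in actB and 91.03, 95.5, and 90.9 in Pb, but did so with libraries blocked by replicate (adjusted p = 0.0375), with median scaling (0.00616), and by edgeR (0.0239). The number of higher genes, 3, became 7 with median scaling, 7 by edgeR, and 6 when libraries were blocked by replicate. Glycolysis genes were lower in 10 (52.6%) and higher in 1 (5.26%) of 19, beside 42.4% and 27.3% of all genes. With median scaling 8 were lower and 1 higher. Among the lower genes was *Ldha*, lactate dehydrogenase, with 642, 627, and 646 RPKM in actB and 483, 424, and 461 in Pb, a log2 fold change of -0.49 (SE 0.1). *Hk1* and *Hk2*, hexokinases that start the pathway, moved apart, *Hk1* with 17.3, 18.8, and 16.7 RPKM in actB and 10.3, 10.9, and 10.2 in Pb, and *Hk2* with 24.98, 26.2, and 23.5 RPKM in actB and 30.9, 30.9, and 28.6 in Pb. Of 76 genes of oxidative phosphorylation, 25 (32.9%) were higher and 11 (14.5%) lower (median log2 fold change 0.05), beside 27.3% and 42.4% of all genes. The counts became 35 and 6 with median scaling and 33 and 10 by edgeR. The largest rise was in *Ndufa1*, a subunit of complex I, with 77.5, 66.6, and 65.7 RPKM in actB and 139, 165, and 143 in Pb. *Ndufa1* differed by 1.09 on the log2 scale (SE 0.08).

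Ribosome biogenesis was lower, with 42 of 47 genes lower and 1 higher (median log2 fold change -0.64). *Fbl*, the methyltransferase of ribosomal RNA, measured 165, 128, and 162 RPKM in actB and 92.5, 80.5, and 99.03 in Pb, a log2 fold change of -0.74 (SE 0.11), and *Ncl*, nucleolin, measured 207, 168, and 202 RPKM in actB and 132, 111, and 123 in Pb, a log2 fold change of -0.66 (SE 0.1). *Npm1*, nucleophosmin, had means of 939.6 RPKM in actB and 483 in Pb, a log2 fold change of -0.97 (SE 0.09). The exception was *Gnl3* (nucleostemin), with 101, 69.6, and 98.8 RPKM in actB and 146, 138, and 168 in Pb, a log2 fold change of 0.76 (SE 0.14). The 77 ribosomal protein genes themselves had no stable direction: 11 were higher and 10 lower in RPKM, 40 and 1 with median scaling, 31 and 2 by edgeR, and 4 and 32 with quantile normalization. Their share of reads was 4.90 ± 0.0906% in actB and 4.94 ± 0.118% in Pb. Many of them have near-identical processed pseudogenes, between which reads may have been split. Proteasome genes likewise lacked a direction, with 3 (7.5%) higher and 11 (27.5%) lower of 40, but 9 and 6 with median scaling, 4 and 17 without replicate 2, and 5 and 18 when libraries were blocked by replicate. In RPKM both lists were below the shares of all genes, 27.3% higher and 42.4% lower.

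Genes of proliferation had small fold changes. Of 52 DNA replication genes, 25 (48.1%) were lower and 8 (15.4%) higher, beside 42.4% and 27.3% of all genes, with a median log2 fold change of -0.22 beside -0.12. Median scaling gave 21 lower and 12 higher. Of 48 genes of mitosis and cytokinesis 10 (20.8%) were lower and 8 (16.7%) higher (median -0.04), both below the shares of all genes. The counts turned to 5 lower and 12 higher with median scaling and became 15 and 7 without replicate 2. *Mcm3*, of the replicative helicase, measured 144, 125, and 147 RPKM in actB and 92.7, 86.2, and 94.1 in Pb, a log2 fold change of -0.6 (SE 0.09), and *Rrm1*, the large subunit of ribonucleotide reductase, measured 111, 93.7, and 113 RPKM in actB and 63.7, 53.4, and 63.4 in Pb. *Rrm1* differed by -0.81 on the log2 scale (SE 0.11). *Mcm2* did not pass the test, with 76.5, 59.7, and 77.2 RPKM in actB and 67.99, 62.6, and 67.9 in Pb, and neither did *Pcna*, the replication clamp, with 331, 265, and 329 RPKM in actB and 298, 263, and 300.2 in Pb. Without replicate 2 the adjusted p of *Pcna* was 0.0158. *Mki67*, a marker of dividing cells, was higher in Pb, with 202, 161, and 186 RPKM in actB and 296, 275, and 274 in Pb, a log2 fold change of 0.63 (SE 0.14). *Foxm1*, which drives mitotic genes, measured 35.9, 32.6, and 36.6 RPKM in actB and 56.3, 56.2, and 56.4 in Pb, a log2 fold change of 0.68 (SE 0.05), whereas *Mybl2* (B-Myb) fell, with 66.5, 59.8, and 70.7 RPKM in actB and 30.7, 27.3, and 33.99 in Pb, a log2 fold change of -1.09 (SE 0.11). The mitotic genes *Ccnb1* and *Plk1* did not pass the test, with log2 fold changes of -0.07 (SE 0.17) and -0.15 (SE 0.14). With libraries blocked by replicate the adjusted p of *Plk1* was 0.0371. Among 15 cyclin-dependent kinase inhibitors, cyclins, and pocket proteins, 5 (33.3%) were higher and 5 (33.3%) lower, beside 27.3% and 42.4% of all genes. *Cdkn2c* (p18), an inhibitor that plasma cells require, measured 12.9, 11.4, and 14.2 RPKM in actB and 22.5, 22.6, and 22.4 in Pb, a log2 fold change of 0.81 (SE 0.09), and *Cdkn2b* (p15) measured 3.85, 3.095, and 2.69 RPKM in actB and 9.38, 9.94, and 11.6 in Pb. *Cdkn2b* differed by 1.61 on the log2 scale (SE 0.12). *Cdkn1a* (p21) did not pass the test, with 12.4, 16.8, and 11.2 RPKM in actB and 12.4, 16.5, and 16.1 in Pb.

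Homing receptors changed in both directions, with 7 of 23 (30.4%) higher and 14 (60.9%) lower, beside 27.3% and 42.4% of all genes. *Ccr7*, which directs naive cells to T cell zones, measured 35.1, 52.5, and 35.03 RPKM in actB and 5.36, 7.36, and 4.65 in Pb, a log2 fold change of -2.77 (SE 0.33). *Cxcr5*, the follicular receptor, measured 108, 132, and 115 RPKM in actB and 47.6, 55.8, and 45.3 in Pb, a log2 fold change of -1.25 (SE 0.13). *Selplg*, the ligand of P-selectin, was higher, with 29.1, 32.3, and 25.5 RPKM in actB and 90.2, 101, and 86.9 in Pb, a log2 fold change of 1.67 (SE 0.09), as was *Ccr10*, a mucosal homing receptor, at a low level, with 0.466, 0.289, and 0.334 RPKM in actB and 2.65, 2.33, and 2.93 in Pb. *Ccr10* differed by 2.24 on the log2 scale (SE 0.12). Together with *Cxcr4*, the integrin gene *Itga4* rose, from a mean of 18.6 to 53.1 RPKM, a log2 fold change of 1.5 (SE 0.1).

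Of 28 receptors for cytokines and microbial ligands, 10 (35.7%) were higher and 13 (46.4%) lower, shares near those of all genes (27.3% and 42.4%). The stimuli of the culture act through some of them. *Il5ra*, the IL5 receptor, measured 3.46, 4.64, and 3.15 RPKM in actB and 15.4, 25.4, and 15.4 in Pb, a log2 fold change of 2.22 (SE 0.23), and *Il2ra*, the high-affinity IL2 receptor chain, did not pass the test, with 36.9, 42.9, and 35.98 RPKM in actB and 31.5, 37.96, and 32.8 in Pb. *Tlr4*, the receptor for LPS, did not pass it either, with 5.79, 6.63, and 6.204 RPKM in actB and 5.79, 5.596, and 5.17 in Pb. *Tlr9*, which senses CpG DNA, fell, with 19.1, 26.5, and 19.1 RPKM in actB and 1.23, 1.31, and 1.43 in Pb, a log2 fold change of -3.78 (SE 0.16), and *Tlr1*, a partner of TLR2, fell, with 42.5, 48.4, and 43.2 RPKM in actB and 3.79, 3.405, and 3.36 in Pb, a log2 fold change of -3.58 (SE 0.2). The BAFF receptor *Tnfrsf13c* measured 122, 133, and 118 RPKM in actB and 65.3, 61.9, and 62.4 in Pb, a log2 fold change of -0.97 (SE 0.07), opposite to *Tnfrsf17*, which binds the same ligand family.

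Genes of the BCL2 family, of which not all promote survival, were lower in 10 (58.8%) and higher in 5 (29.4%) of 17, beside 42.4% and 27.3% of all genes. *Bcl2a1b*, an NF-kB target of activated B cells, measured 112, 131, and 113 RPKM in actB and 20.3, 18.8, and 18.2 in Pb, a log2 fold change of -2.62 (SE 0.2). It and *Bcl2a1d* are near-identical copies, so that reads may be split between them. *Bcl2* itself had means of 23.8 RPKM in actB and 5.52 in Pb, a log2 fold change of -2.05 (SE 0.12). *Mcl1*, on which plasma cells depend, measured 157, 172, and 159 RPKM in actB and 289, 305, and 281 in Pb, a log2 fold change of 0.84 (SE 0.05), and *Bcl2l1* (BCL-XL) measured 15.3, 16.2, and 14.8 RPKM in actB and 49.9, 56.2, and 51.4 in Pb. *Bcl2l1* differed by 1.75 on the log2 scale (SE 0.07). The higher members also included *Bmf* (log2 fold change 0.93) and *Bcl2l11* (BIM, 0.5), which promote cell death. Transcription factors of the NF-kB and AP-1 families were lower in 15 (65.2%) of 23 and higher in 5 (21.7%), beside 42.4% and 27.3% of all genes. *Nfkb1* measured 88.4, 92.8, and 91.7 RPKM in actB and 36.4, 33.3, and 36.9 in Pb, a log2 fold change of -1.35 (SE 0.06), *Rel* measured 30.5, 33.4, and 29.2 RPKM in actB and 14.2, 16.8, and 14.1 in Pb, a log2 fold change of -1.04 (SE 0.08), and *Batf*, an AP-1 factor of class switching, measured 109.9, 86.1, and 99.3 RPKM in actB and 36.5, 24.9, and 36.6 in Pb, a log2 fold change of -1.6 (SE 0.14). *Fos* rose from a low level, with 0.505, 0.674, and 0.512 RPKM in actB and 3.69, 3.27, and 3.996 in Pb, a log2 fold change of 2.26 (SE 0.14).

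The number of interferon-stimulated genes called changed with the handling of replicates. Of 35 genes, 6 (17.1%) were higher and 13 (37.1%) lower, beside 27.3% and 42.4% of all genes. Without replicate 2 these numbers were 9 and 19, and with all replicates and replicate number as a block 9 and 23. *Gbp2*, a guanylate-binding protein, measured 274, 486, and 283 RPKM in actB and 45.8, 61.6, and 31.1 in Pb, with replicate 2 the highest in both groups, and its log2 fold change was -2.91 with all libraries and -2.87 without replicate 2. *Mx2*, an antiviral GTPase, measured 3.56, 10.5, and 3.71 RPKM in actB and 0.488, 1.07, and 0.436 in Pb. *Mx2* differed by -2.64 on the log2 scale (SE 0.5). *Irf7*, the factor of type I interferon induction, was higher in Pb, with 6.85, 16.4, and 7.63 RPKM in actB and 30.6, 41.4, and 31.4 in Pb, a log2 fold change of 1.82 (SE 0.34) (2.06 without replicate 2), as was *Bst2* (tetherin), with 54.3, 91.3, and 55.5 RPKM in actB and 144, 224, and 159 in Pb, a log2 fold change of 1.41 (SE 0.25). *Isg15*, a ubiquitin-like modifier, measured 36.3, 48.4, and 34.2 RPKM in actB and 44.3, 88.96, and 53.3 in Pb, a log2 fold change of 0.6. Its call turned on the setting: the adjusted p was 0.0922 in limma, 0.00197 with libraries blocked by replicate, 0.00945 without replicate 2, and 0.0461 by edgeR. Each Pb library lay above the actB library of the same number. The share of reads of the list was 0.437 ± 0.139% in actB and 0.334 ± 0.0706% in Pb (exact permutation p = 0.3).

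Of 30 Polycomb genes, which include the EZH2 complex, 17 (56.7%) were lower and 8 (26.7%) higher in Pb, beside 42.4% and 27.3% of all genes, mostly by less than 2-fold. *Ezh2*, the methyltransferase that GSK343 blocks, measured 103, 94.3, and 106 RPKM in actB and 80.3, 71.2, and 81.4 in Pb, a log2 fold change of -0.38 (SE 0.08), and its paralog *Ezh1* did not pass the test, with 6.41, 7.78, and 6.36 RPKM in actB and 5.96, 6.66, and 6.12 in Pb. *Phc2*, a scaffold of PRC1, fell most, with 15.4, 15.7, and 14.8 RPKM in actB and 7.11, 6.94, and 6.97 in Pb, a log2 fold change of -1.1 (SE 0.08). The chromobox subunit *Cbx7* was higher, with 10.9, 10.5, and 10.8 RPKM in actB and 18.005, 17.1, and 19.2 in Pb, a log2 fold change of 0.74 (SE 0.06). Enzymes of DNA methylation were lower in 8 (80%) of 10 and higher in 0. The number lower was 6 with median scaling and 6 with quantile normalization. By limma 0 were higher at an unadjusted p under 0.05, and edgeR also called 0 higher. *Dnmt1*, the maintenance methyltransferase, measured 75.8, 64.1, and 74.1 RPKM in actB and 53.1, 48.6, and 52.7 in Pb, a log2 fold change of -0.47 (SE 0.09), *Dnmt3a* measured 6.93, 10.02, and 7.07 RPKM in actB and 2.91, 3.36, and 2.82 in Pb, a log2 fold change of -1.32 (SE 0.14), and the dioxygenase *Tet3* measured 10.3, 10.03, and 9.703 RPKM in actB and 3.901, 3.39, and 3.63 in Pb. *Tet3* differed by -1.4 on the log2 scale (SE 0.06).

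Several of the largest changes lay outside these lists. Besides *Tnfrsf17*, *Ly6c2*, and *Sdc1* (the gene of the CD138 gate), the 12 largest rises included *Cacna1h*, a T-type calcium channel. *Cacna1h* measured 1.15, 1.45, and 0.969 RPKM in actB and 30.997, 38.3, and 32.1 in Pb, a log2 fold change of 4.57 (SE 0.19). *Slpi*, an inhibitor of leukocyte proteases, measured 6.64, 2.22, and 4.62 RPKM in actB and 114, 65.6, and 120.1 in Pb, with replicate 2 lowest in both groups. Its log2 fold change was 4.47 with all libraries and 4.34 without replicate 2. *Cpeb3*, an RNA-binding regulator of translation, measured 1.65, 2.06, and 1.19 RPKM in actB and 33.2, 38.8, and 29.2 in Pb, a log2 fold change of 4.19 (SE 0.16). *Evi5*, a GTPase-activating protein, measured 2.15, 1.99, and 2.01 RPKM in actB and 34.8, 41.7, and 32.7 in Pb. *Evi5* differed by 3.99 on the log2 scale (SE 0.1). *Cox4i2*, the alternative isoform of a cytochrome c oxidase subunit, measured 0.483, 0.617, and 0.519 RPKM in actB and 12.96, 16.3, and 12.2 in Pb, a log2 fold change of 4.15 (SE 0.18), while the common isoform *Cox4i1* did not pass the test, with 389.6, 332, and 362 RPKM in actB and 395, 364, and 410.4 in Pb, but did so with median scaling (adjusted p = 0.00355) and by edgeR (0.0181). *Hsd11b1*, which regenerates active glucocorticoid, measured 1.37, 1.9995, and 1.54 RPKM in actB and 20.9, 28.3, and 21.8 in Pb, a log2 fold change of 3.67 (SE 0.13). The remaining rises of this rank were *Fkbp11*, *Gpr160*, and *Rhpn2*. 

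The largest fall was in *Il4i1*, a secreted amino acid oxidase of activated B cells, with 20.6, 28.9, and 19.9 RPKM in actB and 1.29, 1.55, and 1.103 in Pb, a log2 fold change of -3.89 (SE 0.24). Its exons overlap those of *Nup62* on the same strand and *Atf5* on the other, so its reads may be shared. *Ffar1*, a receptor for long-chain fatty acids, measured 43.9, 48.6, and 40.5 RPKM in actB and 3.42, 2.65, and 3.14 in Pb. *Ffar1* differed by -3.75 on the log2 scale (SE 0.13). *Lacc1*, a laccase-domain enzyme of immune cells, measured 20.97, 39.8, and 22.3 RPKM in actB and 1.69, 2.01, and 1.54 in Pb, a log2 fold change of -3.75 (SE 0.31). *Haao*, of the kynurenine pathway, measured 23.5, 34.6, and 23.8 RPKM in actB and 2.31, 2.12, and 1.72 in Pb, a log2 fold change of -3.57 (SE 0.32), and *Ceacam1*, an inhibitory adhesion receptor, measured 20.7, 20.2, and 20.6 RPKM in actB and 1.79, 1.25, and 1.52 in Pb, a log2 fold change of -3.56 (SE 0.17). *Gh*, the growth hormone gene, was low, with 5.58, 12.6, and 6.56 RPKM in actB and 0.381, 0.302, and 0.475 in Pb, a log2 fold change of -3.66 (SE 0.43) (-3.22 without replicate 2). *Fcer2a*, *Pirb*, *Tlr9*, *Cd22*, and *Tlr1*, given above, were also among the 12 largest falls.

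Within the lists of other cell types, 2 myeloid genes were higher in Pb. *Mrc1*, the mannose receptor of macrophages, measured 0.246, 0.148, and 0.225 RPKM in actB and 4.48, 6.13, and 4.004 in Pb, a log2 fold change of 3.47 (SE 0.27), and *C1qb* had no read in the actB libraries and 0.145, 0.646, and 0.317 RPKM in the Pb libraries, from at most 14 reads in a library, a call that was lost with a pseudocount of 1. *Itgam* (CD11b) fell, with 4.66, 3.505, and 4.65 RPKM in actB and 0.258, 0.193, and 0.175 in Pb, a log2 fold change of -3.29 (SE 0.19), and so did *Flt3*, with 38.5, 64.6, and 38.5 RPKM in actB and 7.65, 7.22, and 8.03 in Pb. *Flt3* differed by -2.55 on the log2 scale (SE 0.24). *Epcam*, an adhesion molecule of epithelia, rose, with 2.99, 3.299, and 2.84 RPKM in actB and 21.5, 22.6, and 22.2 in Pb, a log2 fold change of 2.76 (SE 0.11).

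The same comparison between the 6 libraries with GSK343 gave the same direction for 7798 of the 7877 called genes (99.0%). The means compared come from other libraries, but the estimate of the spread and the filter were shared between both comparisons, so that the calls are not independent. Of the called genes, 7178 (91.1% of 7877) also passed the threshold in the same direction, and 7 passed it in the opposite direction. Among genes called with at least 2-fold change under DMSO, 1935 of 1941 kept their sign. *Prdm1* had a log2 fold change of 1.94 with DMSO and 1.7 with GSK343, *Xbp1* of 2.33 and 2.23, *Pax5* of -2.72 and -3.71, and *Ciita* of -3.51 and -4.02. All 4 secretory lists had the same number of members higher, or more, under GSK343: 24, 49, 40, and 49. A test of the difference itself, the interaction of cell type and culture, found 28 genes (0.248%) at an adjusted p under 0.05, of which the change was more positive with GSK343 in 11 and more negative in 17. This number was not stable: blocking by replicate gave 83, and it was 146 without replicate 2 in every cultured group, and 0 to 58 when single libraries were left out. If the cytokine in the labels is right and no slip, the drug and the cytokine cannot be told apart in these genes.

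**Figure D5:**
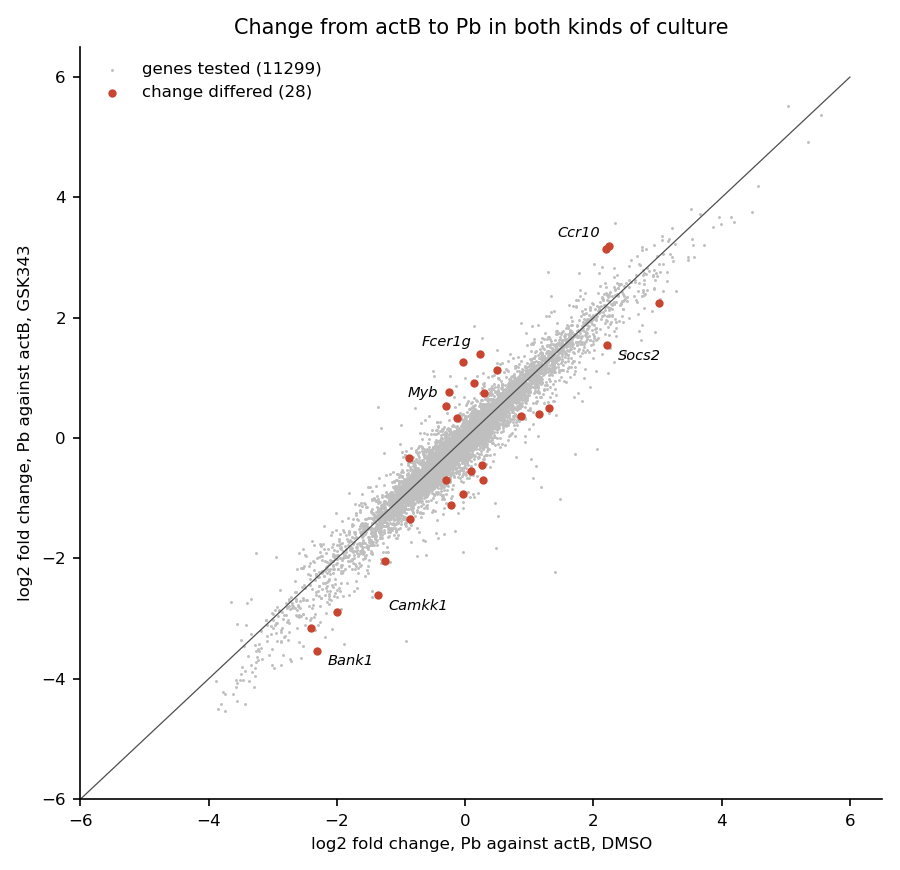
Log2 fold change of Pb against actB in DMSO cultures (horizontal) and in GSK343 cultures (vertical) for 11299 genes (grey). Red points are the 28 genes whose change differed between the cultures, and the diagonal marks equal change. Points lie close to the diagonal, and 7798 of 7877 called genes lie on the same side of 0 on both axes.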

How the data were processed

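RNA of 15 libraries was measured by poly(A)-selected, stranded mRNA-seq (50 bp paired-end reads from 500.0 ng of RNA). Per the study's methods the authors aligned reads to mm9 with TopHat2 and counted those overlapping exons of Entrez genes. Tool versions and the use of strand in counting are not given in the sources used here. The values deposited by the authors are RPM (counted reads scaled to library size) with gene length, for 21761 genes. Whole reads were recovered from 100% of the RPM values within 0.05 reads. RPKM was computed as RPM per kilobase, and log2(RPKM + 0.25) was tested with limma 3.58.1 (R 4.3.3; lmFit, eBayes with trend, two-sided, Benjamini-Hochberg over 11299 genes with a symbol and at least 1 RPKM in at least 3 columns). Fold changes are on this scale, which understates those of low genes. The 92 genes without a symbol held at most 0.0905% of reads. Naive B cell replicates 1 and 2 differed by less than sampling noise (chi-square per degree of freedom 0.00947) and were averaged as 1 library, so the fit held 14 libraries. edgeR 4.0.16 (quasi-likelihood, TMM) on the recovered reads was an alternative, since the deposited unit is not counts.

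Further alternatives were the pseudocount, the filter, median and quantile scaling, the libraries in the fit, the trend, a replicate block, all columns, and the omission of each library. Leaving out replicate 2 of every cultured group and genes under 200 bases were added after seeing the data. The members and gene lists were chosen with earlier results of these data known. Named genes were sort antigens, defining list members, the largest changes within lists (at least 2 RPKM, no overlap between groups) and the 12 largest in each direction over all genes, members against their list's direction, and the top genes of the difference between cultures. *Myb*, *Cd28*, *Siglecg*, *Tcf3*, *Tcf4*, *Atf6*, *Ern1*, *Creld2*, *Alg12*, *Canx*, *Npm1*, *Itga4*, *Bcl2*, and *Fyn* are further list members, some of them named after their values were seen. Same-numbered actB and Pb libraries deviated together (r = 0.324, 0.526, and 0.307, against -0.401 to 0.183 for other pairs), so the numbers may pair the libraries. The main fit compared group means and did not use this pairing. Only the replicate block used it, with 3400 genes higher and 5211 lower in Pb. That they mark the same mouse is not stated. Nothing in the labels says that replicates are separate mice, so p-values measure the spread between these libraries, which may be technical. Intervals and floors cover counting error only. Scripts were tested on simulated data. Python 3.11.15, numpy 2.4.6, pandas 2.3.3, and scipy 1.17.1 were used. Results for a few of the genes are not reported here.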

Additional observations from a re-analysis of the deposited data

Results flagged for a closer look

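The change from actB to Pb differed between cultures with GSK343 and with DMSO in 28 genes, by the interaction contrast in limma at an adjusted p under 0.05. Values are the log2 fold change with GSK343 minus that with DMSO. The change was more positive with GSK343 in 11 genes, with differences of *Thbs1* 1.3, *Fcer1g* 1.16, *D5Ertd605e* 1.01, *Ccr10* 0.96, *Gpnmb* 0.95, *Myb* 0.83, *Samsn1* 0.78, *Nanos1* 0.63, *Cd180* 0.55, *Slc16a6* 0.47, and *B3gnt2* 0.46. It was more negative in 17 genes, with differences of *Camkk1* -1.26, *Bank1* -1.23, *Rap1gap2* -0.97, *Rin3* -0.90, *Rassf4* -0.89, *Arhgef18* -0.89, *Car15* -0.80, *Lat2* -0.79, *Sh2d4b* -0.78, *Ski* -0.75, *Fcrl5* -0.75, *Plekha1* -0.71, *Socs2* -0.67, *Cisd3* -0.64, *Ptpn22* -0.50, *Cyth4* -0.49, and *Il17ra* -0.40. Levels of *Thbs1*, the largest difference, were near the floor. Its means were 0.0533 RPKM in actB and 0.0464 in Pb with DMSO, and 0.0837 and 0.563 with GSK343. At an unadjusted p under 0.05 the change differed in 1017 genes. The count fell to 0 without actB replicate 1 or 3 with DMSO, without actB replicate 3 with GSK343, or without Pb replicate 3 of either culture. It was 1 without actB replicate 1 or Pb replicate 1 with GSK343 or Pb replicate 2 with DMSO, 2 without Pb replicate 1 with DMSO, 13 without actB replicate 2 with DMSO, and 58 without Pb replicate 2 with GSK343. For Pb grown with GSK343 the labels name IL6 where those of the other cultured groups name IL5, while the methods name IL5 for all cultures with LPS. Whether the label is a slip was not settled, and if it is right the drug and the cytokine cannot be told apart in these differences.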

How the results depend on the processing

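The numbers of genes higher and lower in Pb, 3086 and 4791, stayed within 1.5 times under every alternative run, and were 3486 and 4326 by edgeR, 3650 and 4093 with quantile normalization, 3665 and 5043 with no filter, and 2879 to 3025 and 4424 to 4763 when single libraries were left out. The number of genes whose change differed between the cultures, 28, was less stable, at 18 with quantile normalization, 4 with the compared groups alone, 48 with all 15 columns, 146 without replicate 2 in any cultured group (an alternative chosen after seeing the data), and 0 to 58 without single libraries. With the replicate number as a block the counts were 3400 higher and 5211 lower, and 83 for the difference between cultures. The rise in the share of reads of plasma cell surface and antibody assembly genes was 0.763 percentage points without J chain, and 1.05 to 1.09 when single libraries were left out. The cause was not tested for any of these. Of 4730 values of named genes under alternatives, 4619 kept their call and direction, 72 in 22 genes lost the call, 39 in 12 genes gained it, and 0 reversed. Of 1178 list counts, 67 moved by more than 1.5 times. Precision is limited by 3 libraries a group, and at 19447155 to 24265139 reads a library the lowest genes rest on few reads.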
